A study of Homo sapiens with 6 samples.

Results

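The genes described are 36 DNA repair genes, taken by gene name from a list drawn up with earlier results of these data known, that act in mismatch repair (5 genes), nucleotide excision repair (9), base excision repair (12), end joining (7), translesion synthesis (2) and direct reversal (1). All 36 were found among the 58735 genes listed in each library. Expression had been measured by RNA-seq in SKOV3, an established human ovarian carcinoma line, 24 h after a small interfering RNA (siRNA) against HJURP (group siHJURP, 3 libraries) or a negative control siRNA (group NC, 3 libraries). HJURP is the chaperone that places the centromeric histone CENPA. Both groups are the same line without any named genetic change, so the results are of 1 cell line. The design text names biological and experimental triplicates, without saying which of them the libraries are, so p-values measure the spread between these libraries and may be partly technical. The sequence and number of the siRNAs are not stated in the labels.

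DNA repair pathways divide the work by the kind of damage. Mismatch repair corrects base pairs that replication got wrong, base excision repair removes small altered bases through glycosylases that each recognise certain lesions, and nucleotide excision repair cuts out a stretch of strand around bulky lesions such as those made by ultraviolet light. End joining reseals broken duplexes, translesion polymerases copy across damage that stalls the replication fork, and direct reversal removes an alkyl group from the base without cutting the strand.

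The libraries held 17524772 to 18027065 reads in genes in siHJURP and 17116487 to 17625638 in NC. HJURP itself stood at 8.66, 8.64 and 8.65 FPKM (fragments per kilobase of gene, scaled to sequencing depth) in the siHJURP libraries, while the NC libraries held 29.2, 29.02 and 30.0 FPKM. It was lower in siHJURP (log2 fold change -1.66, SE 0.034, limma adjusted p = 1.41e-06, and exact permutation p = 0.1, two-sided, the smallest that 3 against 3 allows). Of 12 markers of ovarian carcinoma and the line, 8 had at least 1 FPKM, and EPCAM, CDH1, WT1 and MUC16 were under that level. Of 13 markers of other cell types, 1 reached it, COL1A1 with 9.83 to 14.2 FPKM in siHJURP and 11.9 to 15.7 FPKM in NC. PTPRC, the pan-leukocyte marker, had at most 0.0118 FPKM and CD3E was listed at 0. The siHJURP libraries did not behave alike for interferon response genes, a list of 36 whose FPKM summed to 806 in replicate 1, 251 in replicate 2 and 1084 in replicate 3, and to between 239 and 269 in the NC libraries. IFI6, an interferon-induced gene, followed the same split at 160, 12.7 and 234 FPKM in siHJURP, with 13.9 to 16.9 FPKM in NC. ISG15, the ubiquitin-like modifier, stood at 124, 16.0 and 198 FPKM in siHJURP, with 16.6 to 21.1 FPKM in NC. Results without replicates 1 and 3 are therefore given below.

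After HJURP silencing the repair genes did not move one way. The glycosylase NEIL3 and the ligase LIG4 fell, and the mismatch repair subunit PMS2, the glycosylase NEIL2 and the polymerase subunit REV3L rose. The other changes that passed were smaller, between -0.22 and 0.27 on the log2 scale. Of the 36 genes, 34 had a mean of at least 1 FPKM and were tested with limma on log2(FPKM + 1), with Benjamini-Hochberg adjustment over all 13365 genes tested and a threshold of 0.05. In this test 7 rose, 5 fell and 22 did not pass. The 12 that passed are 35.3% of those tested, close to the 37.9% of all tested genes that passed (17.6% higher and 20.3% lower in siHJURP). The median log2 fold change was 0.07 over the 34 repair genes and -0.01 over all tested genes, and the median size was 0.12 against 0.17. The siHJURP and NC libraries were fully separated in level for 21 of the 34, beside 52.2% of all tested genes.

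**Figure D1:**
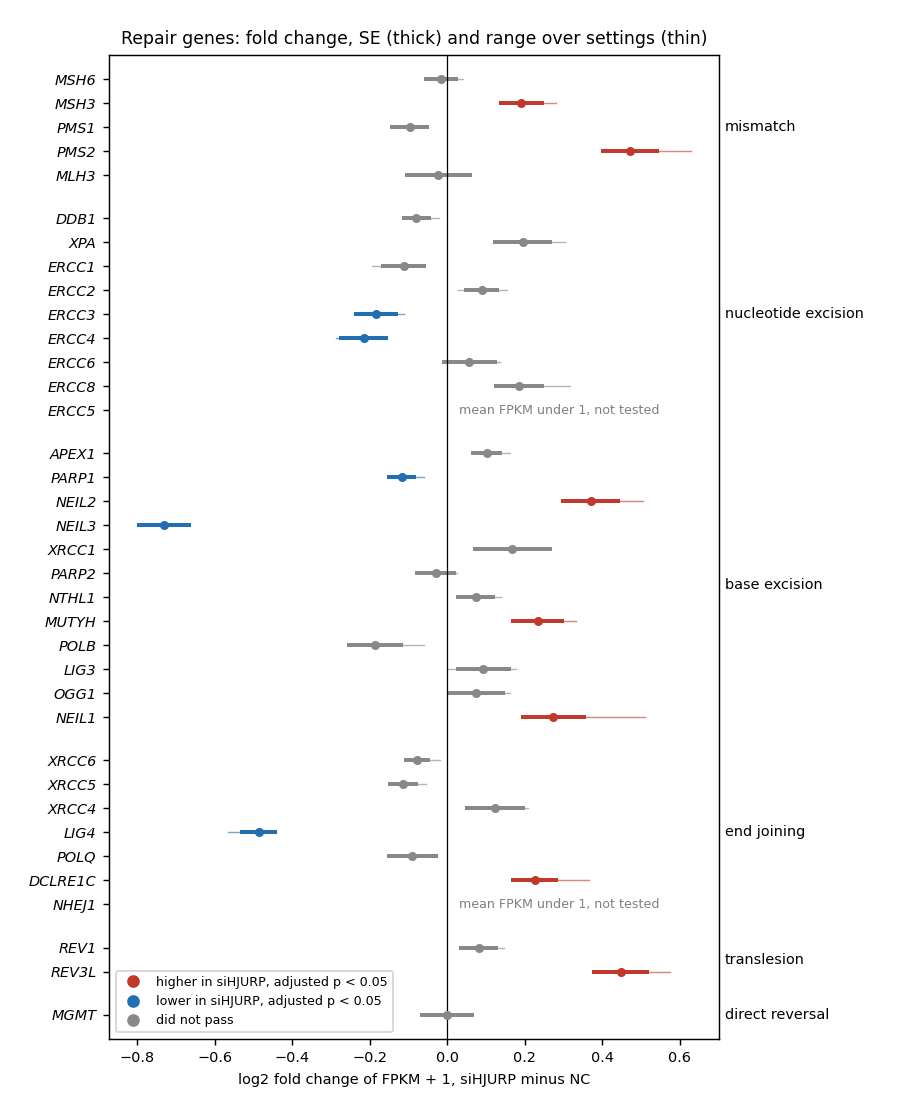
Log2 fold change of FPKM + 1 (siHJURP minus NC) of each repair gene on the horizontal axis, grouped by pathway, with points for the estimate, thick bars for its SE, thin bars for the range over the alternative settings, red for genes that rose, blue for genes that fell and grey for genes that did not pass. NEIL3 at -0.73 and LIG4 at -0.49 lie farthest to the left, and PMS2 at 0.47, REV3L at 0.45 and NEIL2 at 0.37 farthest to the right.

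The calls held to different degrees when single libraries were left out. NEIL3, LIG4, PMS2, NEIL2 and REV3L passed with each of the 6 libraries left out in turn, and the other 7 of the 12 lost the call at least once. The higher count, 7 with all libraries, was 4 without siHJURP replicate 1, 4 without replicate 2, 3 without replicate 3 and 3 without NC replicate 1. The lower count, 5 with all libraries, was 2 without siHJURP replicate 1, without replicate 3, without NC replicate 1 and without NC replicate 3. It was 4 without NC replicate 2 and rose to 7 without siHJURP replicate 2. The share called over all tested genes was also lower with 1 library left out, at 27.8% to 35.3% against 37.9% with all libraries. It was lower still with siHJURP replicates 1 and 3 both left out, so a smaller count there is not particular to the repair genes. With siHJURP replicates 1 and 3 both left out, 2 rose (PMS2 and NEIL2) and 2 fell (NEIL3 and LIG4). That fit takes the lone siHJURP library to vary like the NC libraries, and REV3L then had an adjusted p of 0.0904. The balance of directions also moved with the scaling between libraries: 10 rose and 2 fell after rescaling to TPM, and 11 rose and 2 fell with each library's own read total. Over all tested genes the lower share of the calls was 53.5%, and 40.5% after TPM rescaling. The median log2 fold change of all tested genes was -0.01, against 0.05 after TPM rescaling and 0.04 with read totals. All 12 genes kept their direction in every alternative setting in which they were tested.

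The promoters of NEIL3, LIG4, PMS2 and REV3L are shown because these genes, 2 lower and 2 higher, are among the 5 that passed with each library left out; NEIL2 is the other one and is not shown. They are RefSeq sequences of the build GRCh38.p14, 250 bases before to 50 after an annotated start, written 5′ to 3′ along the gene. Where RefSeq lists several starts, the one nearest to the annotated 5′ end of the gene was taken. They are chr4:177309624-177309923 on the plus strand (NEIL3), chr13:108218300-108218599 on the minus strand (LIG4), chr7:6009057-6009356 on the minus strand (PMS2) and chr6:111483662-111483961 on the minus strand (REV3L). Capitals mark the CCAAT box (CCAAT), the cell cycle homology region (CHR, TTTGAA or TTCGAA), and sites of the NRF1 type, ETS type (CCGGAAGT) and cyclic AMP response element (CRE, TGACGTCA), on either strand.
NEIL3: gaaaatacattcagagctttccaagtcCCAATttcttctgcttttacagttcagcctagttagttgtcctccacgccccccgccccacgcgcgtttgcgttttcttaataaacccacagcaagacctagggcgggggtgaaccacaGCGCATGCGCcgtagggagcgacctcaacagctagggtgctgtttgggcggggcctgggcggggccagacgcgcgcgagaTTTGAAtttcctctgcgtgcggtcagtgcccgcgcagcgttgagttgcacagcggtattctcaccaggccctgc
LIG4: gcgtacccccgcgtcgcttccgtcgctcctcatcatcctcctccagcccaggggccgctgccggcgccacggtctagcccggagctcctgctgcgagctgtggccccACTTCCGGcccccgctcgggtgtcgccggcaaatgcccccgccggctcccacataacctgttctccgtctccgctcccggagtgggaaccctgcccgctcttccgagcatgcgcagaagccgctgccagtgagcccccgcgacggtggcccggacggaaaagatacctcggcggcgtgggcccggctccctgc
PMS2: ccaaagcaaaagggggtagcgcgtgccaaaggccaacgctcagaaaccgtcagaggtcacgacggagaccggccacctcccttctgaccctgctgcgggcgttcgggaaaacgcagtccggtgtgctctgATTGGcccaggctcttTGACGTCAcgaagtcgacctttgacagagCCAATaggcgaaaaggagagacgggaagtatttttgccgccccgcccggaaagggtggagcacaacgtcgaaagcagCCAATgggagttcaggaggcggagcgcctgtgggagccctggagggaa
REV3L: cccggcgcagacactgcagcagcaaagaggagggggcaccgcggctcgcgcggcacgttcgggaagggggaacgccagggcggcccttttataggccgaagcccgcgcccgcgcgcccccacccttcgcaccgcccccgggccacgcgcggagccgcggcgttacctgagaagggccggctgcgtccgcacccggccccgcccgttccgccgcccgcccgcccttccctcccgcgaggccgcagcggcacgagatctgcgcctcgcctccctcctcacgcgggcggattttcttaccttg
The NEIL3 window holds 1 CCAAT box, 1 CHR and 1 NRF1-type site, the LIG4 window 1 ETS-type site, and the PMS2 window 3 CCAAT boxes and 1 CRE. The REV3L window holds none of these and 7 GC boxes (GGGCGG), which are not in capitals. NEIL3 had 4 GC boxes, PMS2 had 2 and LIG4 had 0. Among all 35116 promoter windows of the same length, 34.6% held a CCAAT box, 16.4% a CHR, 1.24% the NRF1-type site, 4.14% the ETS-type site, 1.85% the CRE and 45.0% a GC box. A match of letters is a description of the window and not evidence that a factor binds it.

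Mismatch repair. PMS2 rose and MSH3 rose slightly, while MSH6, PMS1 and MLH3 did not pass, so 2 of 5 genes were higher and 0 lower. That is 40.0% called, beside 37.9% of all tested genes (17.6% higher and 20.3% lower). With so few genes a pathway, such counts cannot give a direction for it. PMS2, the subunit whose partner complex nicks the strand that carries the error, was at 5.80, 5.998 and 4.94 FPKM in the siHJURP libraries (replicates 1 to 3 in order, as throughout), against 3.96, 3.65 and 3.60 FPKM in NC. All siHJURP libraries lay above all NC libraries. PMS2 lies on chromosome 7 from 5973239 to 6009125 (hg38, minus strand). The means were 5.58 ± 0.56 FPKM in siHJURP and 3.74 ± 0.20 FPKM in NC (SD, n = 3 each, as for all means here), 1.49-fold higher (log2 0.47, SE 0.075, limma adjusted p = 0.00293). PMS2 has many partial copies on chromosome 7, between which reads cannot be split with certainty. Of these, PMS2P4 rose (log2 0.53, limma adjusted p = 0.0382), PMS2P1 (0.33, adjusted p = 0.0577) and PMS2CL (0.18, adjusted p = 0.087) did not pass in the limma fit, and PMS2P3 had 0.05.

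MSH3, the MutS subunit that recognises insertion and deletion loops, had 6.12, 6.21 and 6.13 FPKM in siHJURP and 4.85, 5.30 and 5.68 FPKM in NC. The siHJURP libraries were close together and above all NC libraries (log2 0.19, SE 0.058, limma adjusted p = 0.038). The call was lost without siHJURP replicate 1 (adjusted p = 0.0944, limma), 2 (0.0906) or 3 (0.0892) and without NC replicate 1 (0.0926) or 2 (0.0718). MSH6, the alternative partner that recognises single mismatches, had 11.2, 10.8 and 10.8 FPKM in siHJURP and 10.6, 11.1 and 11.5 FPKM in NC. Its groups overlapped (log2 -0.02, SE 0.045, limma adjusted p = 0.806).

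PMS1 (log2 -0.10, SE 0.051) and MLH3 (log2 -0.02, SE 0.086), which form alternative MutL heterodimers, did not pass either (limma adjusted p = 0.175 and 0.86). The level of MLH3 was 2.64 to 2.90 FPKM in siHJURP and 2.45 to 3.13 FPKM in NC. For PMS1 all siHJURP libraries, at 4.66 to 4.87 FPKM, were below the NC libraries, at 4.95 to 5.47 FPKM.

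Base excision repair. This pathway had the gene with the largest change of the 36, and its 3 NEIL glycosylases went different ways: NEIL1 and NEIL2 rose and NEIL3 fell. In all, 3 of 12 genes rose (NEIL1, NEIL2 and MUTYH), 2 fell (NEIL3 and PARP1) and 7 did not pass. The share called, 41.7%, was near the 37.9% of all tested genes. NEIL3, a glycosylase for oxidised bases in single-stranded DNA that also unhooks interstrand crosslinks and is known from proliferating cells, reached 8.10, 7.76 and 7.002 FPKM in the siHJURP libraries. The NC libraries had 12.2, 13.7 and 14.1 FPKM, so the groups stood well apart. NEIL3 lies on chromosome 4 from 177309836 to 177362943 (hg38, plus strand). It averaged 7.62 ± 0.56 FPKM in siHJURP and 13.3 ± 0.98 FPKM in NC and fell by 42.7% (log2 -0.73, SE 0.070, limma adjusted p = 0.000374). With each library left out the adjusted p of this limma fit was 0.000933 to 0.00243. Over 15 proliferation genes, among them PCNA and MCM helicase subunits, the summed level was 625 to 671 FPKM in siHJURP and 716 to 739 FPKM in NC. Of the 15, 9 were lower and 0 higher, beside 20.3% lower of all tested genes. The 6 that did not pass were MKI67 (log2 -0.01), MCM3 (-0.03), MCM6 (-0.18), CCNB1 (-0.01), CCNA2 (0.09) and TYMS (-0.11). The part of the lower proliferation genes in the NEIL3 change was not tested, and in bulk RNA fewer cells of a state and less RNA per cell cannot be told apart.

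NEIL2, a glycosylase for oxidised bases in bubbles and transcribed DNA, had 12.1, 14.0 and 11.96 FPKM in siHJURP, against 8.85, 10.4 and 9.53 FPKM in NC. The groups did not overlap (12.7 ± 1.1 and 9.58 ± 0.76 FPKM, 1.32-fold higher, log2 0.37, SE 0.076, limma adjusted p = 0.0088). It shares no exon base with another gene, and its adjusted p was 0.00955 to 0.03004 with each library left out. NEIL1, a glycosylase for oxidised pyrimidines, was the lowest tested gene of the 36, with 1.84, 1.83 and 1.63 FPKM in siHJURP and 1.24, 1.38 and 1.25 FPKM in NC. It rose by 0.27 on the log2 scale (SE 0.085, limma adjusted p = 0.0409), which understates the change of so low a gene, and the ratio of the means was 1.37. The NEIL1 call was lost when any single library was left out, with an adjusted p of 0.121, 0.106 and 0.0615 without siHJURP replicates 1, 2 and 3 and 0.1, 0.0513 and 0.103 without NC replicates 1, 2 and 3. NEIL1 shares 26.4% of its exon bases with MAN2C1 on the other strand, which fell in siHJURP (4.76 ± 0.022 FPKM, against 5.86 ± 0.52 FPKM in NC, log2 -0.25, limma adjusted p = 0.0204).

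MUTYH, which removes adenine paired with oxidised guanine, had 5.26, 6.05 and 5.73 FPKM in siHJURP and 4.33, 4.997 and 4.72 FPKM in NC. It rose by 0.23 (log2, SE 0.067, limma adjusted p = 0.0321), and the lowest siHJURP library was only just above the highest NC library. The call was lost without siHJURP replicate 2 (adjusted p = 0.091, limma) or 3 (0.0857) and without NC replicate 1 (0.0902) or 3 (0.0737). The glycosylases OGG1, which removes oxidised guanine, and NTHL1, which removes oxidised pyrimidines, did not pass (log2 0.07 for each, limma adjusted p = 0.472 and 0.287). OGG1 was at 2.14 to 2.50 FPKM in siHJURP and 2.06 to 2.28 FPKM in NC, and NTHL1 at 7.25 to 7.76 FPKM in siHJURP and 6.73 to 7.40 FPKM in NC, so both pairs of groups overlapped. OGG1 shares 29.04% of its exon bases with other genes, among them TADA3, which rose (log2 0.60, limma adjusted p = 0.000665).

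Downstream of the glycosylases the changes were small. PARP1, the main sensor of single-strand breaks, had 38.4, 40.0 and 37.7 FPKM in siHJURP and 43.0, 41.0 and 42.2 FPKM in NC. It fell by 7.98% (log2 -0.12, SE 0.038, limma adjusted p = 0.0475), a call lost without siHJURP replicate 1 (adjusted p = 0.138) or 3 (0.136), without NC replicate 1 (0.132) or 3 (0.119), after TPM rescaling (0.283) and with total reads (0.215). PARP2, its relative, did not pass (log2 -0.03, SE 0.054, limma adjusted p = 0.694), at 8.84 to 10.03 FPKM in siHJURP and 9.73 to 9.94 FPKM in NC. APEX1, the endonuclease that cuts at abasic sites, was the most abundant gene of the pathway, with 74.2, 75.9 and 72.9 FPKM in siHJURP and 68.0, 72.2 and 67.5 FPKM in NC. All siHJURP libraries were above all NC libraries, but the difference did not pass (log2 0.10, SE 0.039, limma adjusted p = 0.0817). It passed without NC replicate 2 (adjusted p = 0.0294) and after TPM rescaling (0.007). The gap-filling polymerase POLB had 4.09 to 4.86 FPKM in siHJURP and 4.77 to 5.39 FPKM in NC (log2 -0.19, limma adjusted p = 0.0822), and passed without siHJURP replicate 2 (0.0322). The scaffold XRCC1 (log2 0.17, SE 0.10) and its ligase LIG3 (log2 0.09, SE 0.072) did not pass, and their groups overlapped. XRCC1 ran between 9.27 and 11.4 FPKM in siHJURP and between 8.16 and 10.6 FPKM in NC, and LIG3 between 3.19 and 3.63 FPKM in siHJURP and between 2.94 and 3.45 FPKM in NC.

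**Figure D2:**
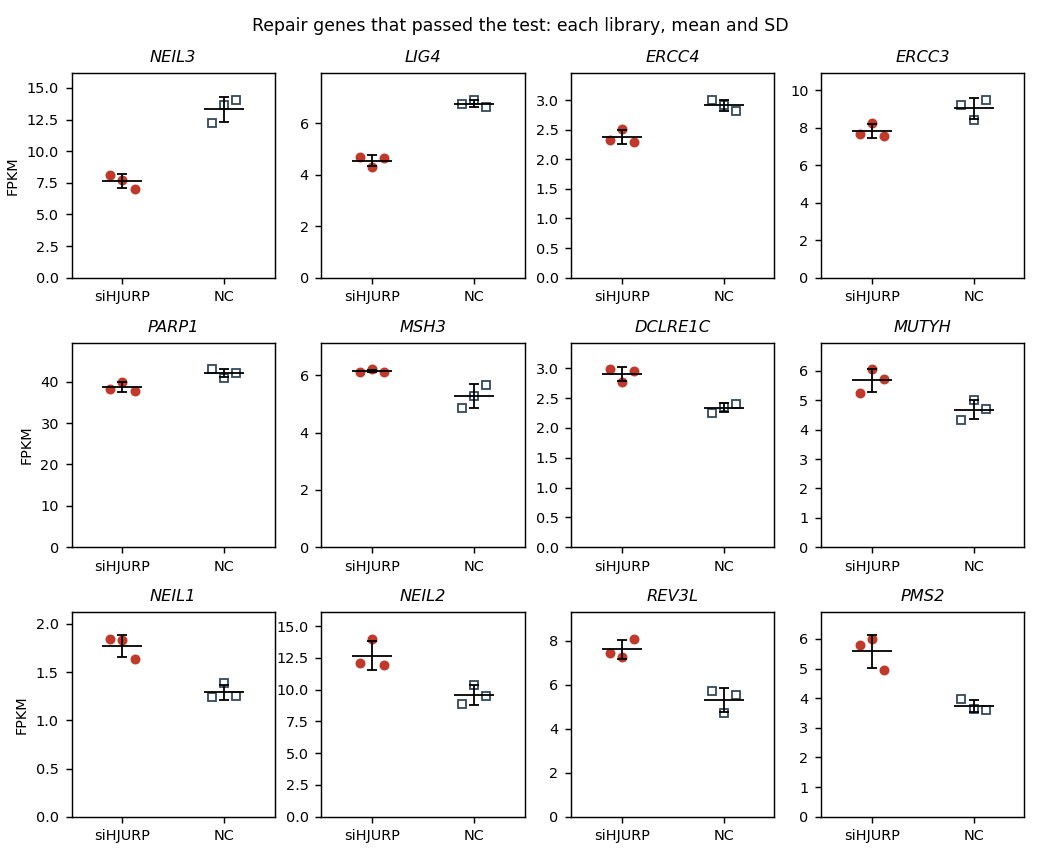
FPKM on the vertical axis, from 0, of the 12 repair genes that passed the test, with red circles for the siHJURP libraries, open squares for the NC libraries, and a line with a bar for the mean and SD. The groups do not overlap in any of the 12 panels, and the gap is widest for NEIL3 (7.62 FPKM in siHJURP and 13.3 FPKM in NC) and narrow for ERCC3, MUTYH and PARP1.

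End joining. The ligase LIG4 fell and the nuclease DCLRE1C rose, while the abundant Ku subunits changed little and did not pass. LIG4, which seals the break together with XRCC4, had 4.69, 4.32 and 4.65 FPKM in siHJURP, against 6.75, 6.91 and 6.65 FPKM in NC. LIG4 lies on chromosome 13 from 108207439 to 108218368 (hg38, minus strand). The libraries of each group were close together and far from the other group. LIG4 averaged 4.55 ± 0.20 FPKM in siHJURP and 6.77 ± 0.13 FPKM in NC and fell by 32.8% (log2 -0.49, SE 0.048, limma adjusted p = 0.00041). It shares no exon base with another gene, and it passed with each library left out (adjusted p 0.00164 to 0.00266). XRCC4 itself had 8.94, 9.69 and 8.95 FPKM in siHJURP and 7.73, 7.92 and 9.49 FPKM in NC, overlapping groups (log2 0.12, SE 0.077, limma adjusted p = 0.247). Without NC replicate 3, the highest of its group, XRCC4 passed (adjusted p = 0.0362).

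DCLRE1C encodes Artemis, the nuclease that trims ends before joining. It had 2.98, 2.76 and 2.96 FPKM in siHJURP and 2.25, 2.35 and 2.40 FPKM in NC, groups that did not overlap (log2 0.23, SE 0.062, limma adjusted p = 0.0261). The call was lost without siHJURP replicate 1 (adjusted p = 0.0884, limma) or 3 (0.0797) and without NC replicate 1 (0.0739) or 3 (0.054). Its neighbour SUV39H2, a histone methyltransferase gene with which it shares 159 exon bases on the opposite strand, also rose (9.37 ± 0.67 FPKM in siHJURP and 7.14 ± 0.59 FPKM in NC, log2 0.35, limma adjusted p = 0.00869).

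XRCC6 and XRCC5 encode Ku70 and Ku80, which form the ring that binds broken ends. XRCC6 was the most abundant of the 36 genes, with 205, 209 and 200.4 FPKM in siHJURP and 216, 217 and 214 FPKM in NC, above 99.4% of all tested genes. XRCC5 had 91.4, 94.7 and 88.3 FPKM in siHJURP and 97.3, 98.9 and 101 FPKM in NC. In both genes every siHJURP library was below every NC library, and neither passed (log2 -0.08 and -0.11, limma adjusted p = 0.106 and 0.052). XRCC5 passed without siHJURP replicate 2 (adjusted p = 0.0384). POLQ, the polymerase of microhomology-mediated joining, had 4.92 to 5.55 FPKM in siHJURP and 5.16 to 5.95 FPKM in NC and did not pass (log2 -0.09, SE 0.066, limma adjusted p = 0.317).

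Nucleotide excision repair. Of 8 tested genes 0 rose, 2 fell (ERCC3 and ERCC4) and 6 did not pass. For 7 of the 8 the siHJURP and NC libraries were apart, beside 52.2% of all tested genes. These 7 went both ways: XPA, ERCC2 and ERCC8 were above NC, and ERCC1, ERCC3, ERCC4 and DDB1 below it. ERCC4, the XPF subunit of the nuclease that cuts 5′ of the lesion, had 2.32, 2.51 and 2.28 FPKM in siHJURP and 3.003, 2.92 and 2.82 FPKM in NC. It fell by 18.6% (log2 -0.22, SE 0.062, limma adjusted p = 0.0321). The call was lost without siHJURP replicate 1 (adjusted p = 0.0939, limma) or 3 (0.0917) and without NC replicate 1 (0.0925), 2 (0.0658) or 3 (0.0614). Of its exon bases, 25.7% are shared with the antisense gene AC010401.1. ERCC1, the other subunit of that nuclease, had 9.43, 8.66 and 9.58 FPKM in siHJURP and 9.66, 10.8 and 9.74 FPKM in NC (log2 -0.11, SE 0.058, limma adjusted p = 0.171). ERCC1 shares 28.6% of its exon bases with CD3EAP on the other strand, an RNA polymerase I subunit gene that fell (log2 -0.42, limma adjusted p = 0.00615).

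ERCC3 and ERCC2 encode XPB and XPD, the helicases of TFIIH that open the strands around the lesion. ERCC3 had 7.67, 8.27 and 7.53 FPKM in siHJURP and 9.20, 8.40 and 9.48 FPKM in NC. It fell by 13.3% (log2 -0.18, SE 0.058, limma adjusted p = 0.0434), a call lost without siHJURP replicate 1 (adjusted p = 0.123) or 3 (0.124), without NC replicate 1 (0.113) or 3 (0.127), after TPM rescaling (0.133) and with total reads (0.101). ERCC2 went the other way without passing, with 9.69, 9.17 and 10.01 FPKM in siHJURP and 9.04, 8.80 and 9.11 FPKM in NC (log2 0.09, SE 0.045, limma adjusted p = 0.16). XPA, which checks the lesion, had 12.1, 14.1 and 12.8 FPKM in siHJURP and 10.1, 12.005 and 11.6 FPKM in NC (log2 0.19, SE 0.076, limma adjusted p = 0.085). The damage-binding subunit DDB1 (log2 -0.08, adjusted p = 0.138) and the transcription-coupled factors ERCC8 (0.18, adjusted p = 0.0597) and ERCC6 (0.06, adjusted p = 0.563) did not pass in the limma fit either. DDB1 was at 32.2 to 33.9 FPKM in siHJURP, below the 34.5 to 36.1 FPKM of NC. ERCC8 was at 2.59 to 2.81 FPKM in siHJURP, above the 2.18 to 2.32 FPKM of NC. ERCC6 overlapped, at 2.39 to 2.67 FPKM in siHJURP and 2.23 to 2.54 FPKM in NC. After TPM rescaling XPA and ERCC8 passed as higher.

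Translesion synthesis and direct reversal. REV3L, the catalytic subunit of polymerase zeta, had 7.46, 7.28 and 8.09 FPKM in siHJURP, against 5.73, 4.71 and 5.53 FPKM in NC. The groups were clearly apart, with means of 7.61 ± 0.42 FPKM in siHJURP and 5.32 ± 0.54 FPKM in NC (1.43-fold higher, log2 0.45, SE 0.074, limma adjusted p = 0.00343). With 1 library left out, the adjusted p was 0.00515 to 0.0148. REV1, the deoxycytidyl transferase that recruits the other translesion polymerases, had 8.29, 7.52 and 7.69 FPKM in siHJURP and 7.44, 7.53 and 7.07 FPKM in NC, and did not pass (log2 0.08, SE 0.050, limma adjusted p = 0.245). MGMT, which takes alkyl groups from guanine onto itself and marks response to temozolomide in glioma, had 6.69, 6.61 and 7.23 FPKM in siHJURP and 6.26, 7.56 and 6.77 FPKM in NC. Its groups overlapped (log2 -0.00098, SE 0.070, limma adjusted p = 0.994).

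**Figure D3:**
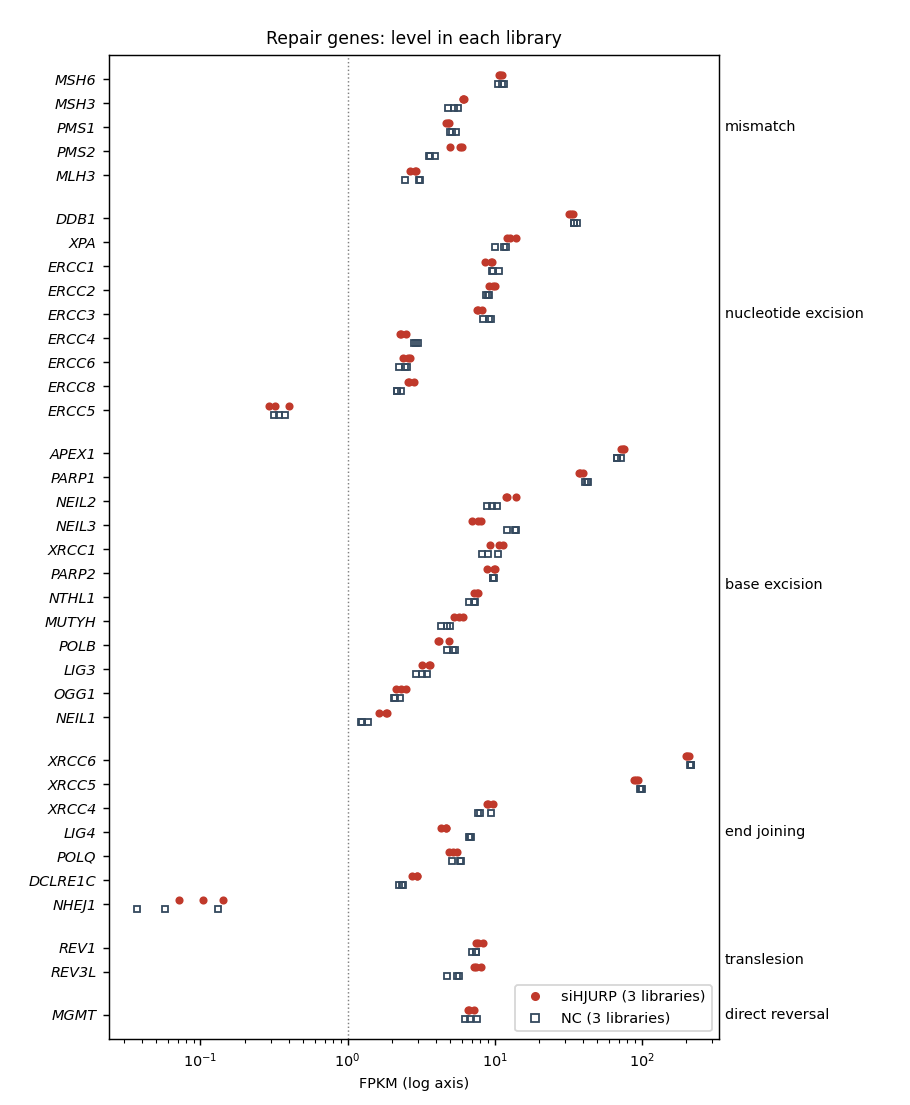
FPKM of each repair gene on a log axis, with red circles for the 3 siHJURP libraries drawn above open squares for the 3 NC libraries, grouped by pathway; the dotted line marks 1 FPKM, the level needed for testing. Levels run from XRCC6 near 205 FPKM in siHJURP and 216 FPKM in NC down to ERCC5 and NHEJ1, both left of the line.

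The balance between genes whose products work together or in place of each other was compared within libraries, in 10 pairs. The groups did not overlap in 5 pairs, for which the exact two-sided permutation test gave p = 0.1, its minimum here, and 0.2 after adjustment over the 10 pairs. This permutation test therefore cannot place any pair past the threshold, and no other test of the ratios was run. Each of the 5 pairs joins a gene that passed on its own (LIG4, PMS2, MSH3, REV3L or ERCC3) to a partner that did not. These ratios come from the same libraries and so partly restate those calls. For single genes the groups were apart in 52.2% of all tested genes, and no such share was computed for ratios of other genes. The ratio of XRCC4 to LIG4 FPKM was 1.91, 2.25 and 1.92 in siHJURP, against 1.145, 1.146 and 1.43 in NC. PMS2 was above PMS1 in all siHJURP libraries (ratios 1.20, 1.23 and 1.06) and below it in all NC libraries (0.724, 0.737 and 0.699). The ratio of MSH3 to MSH6 was 0.563 ± 0.016 in siHJURP and 0.476 ± 0.017 in NC. REV3L to REV1 was 0.973 ± 0.076 in siHJURP and 0.726 ± 0.087 in NC, and ERCC3 to ERCC2 was 0.815 ± 0.077 in siHJURP and 1.00 ± 0.045 in NC. The Ku ratio of XRCC5 to XRCC6 was 0.447 ± 0.0065 in siHJURP and 0.459 ± 0.011 in NC, with overlapping groups. Without siHJURP replicate 2 the groups were apart in 8 pairs, a count that leaving out a library can only keep or raise.

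**Figure D4:**
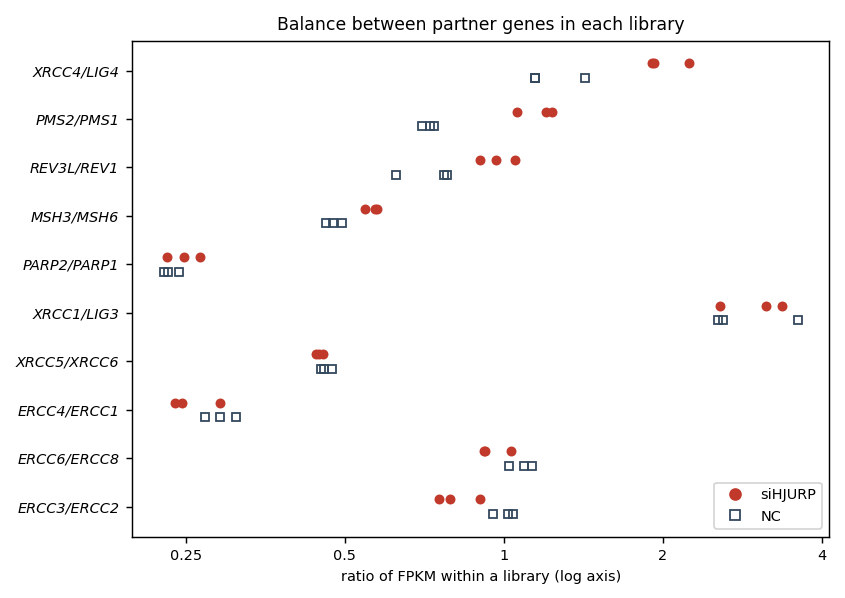
Ratio of the FPKM of 2 partner genes within each library, on a log axis, for 10 pairs, with red circles for siHJURP libraries drawn above open squares for NC libraries. The circles lie apart from the squares for XRCC4/LIG4, PMS2/PMS1, REV3L/REV1, MSH3/MSH6 and ERCC3/ERCC2, and overlap them for the other 5 pairs.

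ERCC5 and NHEJ1 had a mean under 1 FPKM and were not tested. ERCC5, the XPG nuclease that cuts 3′ of the lesion, had 0.294, 0.323 and 0.398 FPKM in siHJURP and 0.376, 0.342 and 0.317 FPKM in NC, from 44 to 59 reads. NHEJ1, the XLF factor that bridges ends, had 0.0715 to 0.142 FPKM in siHJURP and 0.0370 to 0.132 FPKM in NC, from 2 to 8 reads per library. Both share most of their annotated exon bases with a longer gene on the same strand: 63.2% of those of ERCC5 lie in BIVM-ERCC5 and 65.4% of those of NHEJ1 in AC068946.1. BIVM-ERCC5 was listed at 0 in all 6 libraries, and 100% of its own exon bases lie in exons of other genes. AC068946.1 had 0.292 ± 0.086 FPKM in siHJURP and 0.101 ± 0.047 FPKM in NC. The labels do not state how reads in shared exons were counted, so the listed values of ERCC5 and NHEJ1 need not be their expression, and 3029 and 1075 exon bases of ERCC5 and NHEJ1 lie in no other gene. Some sharing with other genes occurred for 22 of the 36, on the same strand for 4, and for 6 of the 12 that passed.

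**Figure D5:**
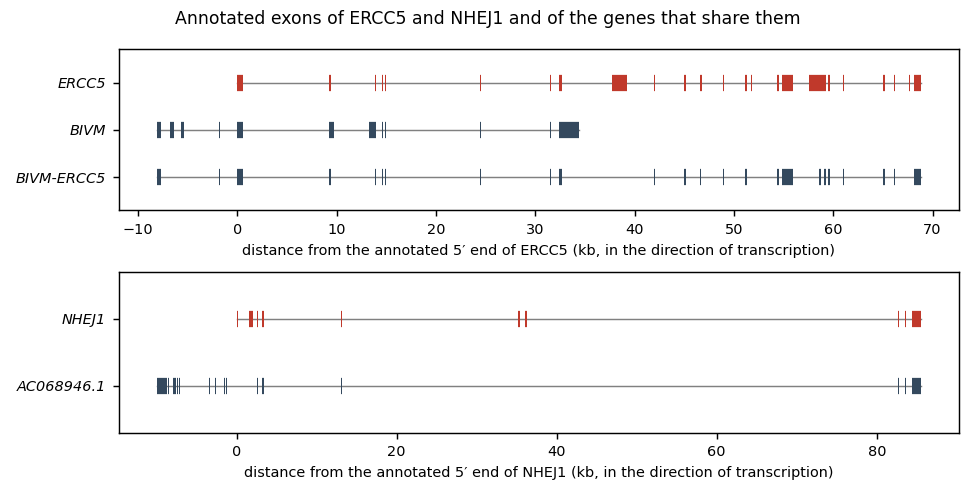
Annotated exons (blocks) of ERCC5 and NHEJ1 in red and of the genes that share exon bases with them in dark blue, by distance in kb from the annotated 5′ end of ERCC5 or NHEJ1 along the direction of transcription. BIVM-ERCC5 covers 63.2% of the exon bases of ERCC5, and AC068946.1 covers 65.4% of those of NHEJ1.

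Other genes of the same pathways were described from a list of 81, also drawn up with earlier results of these data known. Over all tested genes 37.9% were called (17.6% higher and 20.3% lower). Of the 81 genes 76 were tested: 13 rose, 21 fell and 42 did not pass, 44.7% called, with a median log2 fold change of -0.05. The lower count was 13 without siHJURP replicate 1, and 8 rose and 4 fell with siHJURP replicates 1 and 3 both left out. The mismatch repair list, which holds the replication factors that this pathway borrows, had 10 lower and 0 higher genes of 17 (58.8% called, median -0.18). RPA2, a subunit of the single-strand binding protein, had 30.3 ± 1.3 FPKM in siHJURP and 43.5 ± 2.6 FPKM in NC (log2 -0.51, limma adjusted p = 0.000532). The sliding clamp PCNA had a log2 fold change of -0.40 and the polymerase delta subunit POLD3 one of -0.39, both lower. In contrast, 8 of 18 further nucleotide excision genes rose and 1 fell (median 0.12). The cullin CUL4B had 15.3 ± 0.42 FPKM in siHJURP and 11.9 ± 0.33 FPKM in NC (log2 0.34, SE 0.040, limma adjusted p = 0.00091), and the TFIIH subunit GTF2H1 rose by 0.33 on the log2 scale.

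The shares called in the next 3 lists were nearer to the 37.9% of all tested genes. Of 15 further base excision genes 2 rose and 4 fell (40.0% called, median -0.10). The thymine glycosylase TDG rose to 17.3 ± 0.66 FPKM in siHJURP, against 12.9 ± 0.37 FPKM in NC (log2 0.40), the flap endonuclease FEN1 fell by 0.40 and PARG, which removes poly(ADP-ribose), fell by 0.31. Of 11 end joining genes 2 rose and 3 fell (45.5% called, median -0.01). TP53BP1, which shields ends from resection, was at 12.3 ± 0.39 FPKM in siHJURP and 9.31 ± 0.50 FPKM in NC (log2 0.36, limma adjusted p = 0.00155). The gap-filling polymerase POLL rose by 0.29 and the Ku-binding PAXX fell by 0.28. Of 13 translesion genes 1 rose and 3 fell (30.8% called, median 0.02). The polymerase POLI had 3.04 ± 0.13 FPKM in siHJURP and 1.97 ± 0.050 FPKM in NC (log2 0.44), while RAD18, the ligase that marks PCNA for translesion synthesis, fell by 0.40, and its partner UBE2A by 0.28. The reversal enzymes ALKBH2 and ALKBH3 did not pass.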

How the data were processed

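Per the labels' protocols, SKOV3 cells received siHJURP or siNC, RNA was taken with Trizol after 24 h, and NEBNext Ultra libraries were made. The authors' deposited values are FPKM, 1 table per library. The submitters' processing notes name HISAT2 2.0.5, featureCounts 1.5.0-p3 and hg38; strand use in counting is not given in the sources used here. Samples were grouped by title.

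FPKM times gene length gave whole multiples of 1 read in 100% of values (tolerance 0.01 reads), from which reads in genes were summed. The library size behind the FPKM was 1.02 to 1.03 times that sum in siHJURP and 0.985 to 0.989 times in NC, so the deposited FPKM had been rescaled from plain read totals. Scaling the reads by each library's median ratio to the geometric mean over libraries gave the same counts as the deposited FPKM. These were 5068 of all tested genes called, with 7 repair genes higher and 5 lower, so that setting is no separate check. Gene lengths equalled the GENCODE 29 exon union for all 36 genes; exon sharing was computed from that annotation, and promoters came from RefSeq (33 of 36 genes matched).

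Genes with a mean of at least 1 FPKM were fitted as log2(FPKM + 1) in limma 3.58.1 (R 4.3.3) with an intensity trend. Benjamini-Hochberg adjustment was at 0.05, and fold changes on this scale understate those of low genes. The fit was also tried on simulated reads in which few genes changed, by larger folds than most calls here. That check does not cover small changes. Tests were two-sided. Tables, permutation tests and figures used Python 3.11.15, pandas 2.3.3, scipy 1.17.1 and matplotlib 3.10.9. Alternatives were other pseudocounts, filters, scalings and moderation, voom on the whole reads, a replicate block and libraries left out. Full values were given for every member past the threshold, and up to 3 other genes per pathway by adjusted p. The members and lists were chosen with earlier results of these data known. Values of some genes are not reported here.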

Additional observations from a re-analysis of the deposited data

How the results depend on the processing

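Of the 7 higher and 5 lower repair genes, the counts were 3 and 2 with no filter on low values, 4 higher at a mean of at least 5 FPKM, 2 lower after TPM rescaling, 11 and 2 with total reads, 11 and 3 with voom, 3 lower without an intensity trend, and 2 and 2 without siHJURP replicates 1 and 3. At the filter of 5 FPKM only 23 repair genes were tested. The higher genes PMS2, NEIL1 and DCLRE1C, with means of 4.66, 1.53 and 2.62 FPKM, fell under it. Of all tested genes 50.5% were called at that filter and 10.9% with no filter. With 1 library left out the repair genes were 3 to 6 higher and 2 to 7 lower. Over all genes 2355 were higher and 2713 lower, against 3543 higher with voom, and 716 higher and 1128 lower without siHJURP replicates 1 and 3. The further pathway genes then gave 8 and 4, and their lower count was 13 to 21 with 1 library left out. Partner pairs with groups apart numbered 5 to 8 with 1 library left out, which by construction cannot lower that count and so is no check of it. The cause was not tested.

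Of the 22 repair genes that did not pass, 5 changed sign in some setting. After TPM rescaling, with total reads and with voom the log2 fold change was 0.0419, 0.0343 and 0.0384 for MSH6, 0.0260, 0.0194 and 0.0221 for PARP2, 0.0572, 0.0467 and 0.0536 for MGMT, and 0.0281, 0.0178 and 0.0287 for MLH3. Without siHJURP replicates 1 and 3 it was 0.0140 for PARP2, 0.0134 for MLH3 and -0.00023 for OGG1. With 1 library left out it ran -0.0469 to 0.00992 for MSH6, -0.0604 to 0.0222 for PARP2, -0.0571 to 0.062 for MGMT, -0.11 to 0.0252 for MLH3 and -0.00435 to 0.21 for the XRCC1 to LIG3 ratio (log2 difference).

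Same-numbered libraries correlated at 0.0025, -0.012 and 0.016 in their deviations from the group means, and differently numbered ones at -0.034 to 0.030. These values showed no pairing by replicate number, but cannot tell whether same-numbered libraries were handled together. With a replicate block 5 repair genes rose and 2 fell. With 3 libraries a group, small changes near the threshold are decided by single libraries, and strand use in counting is unknown for genes that share exon bases.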

Other observations

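Across the 33 repair genes with a RefSeq promoter window, 29 had a GC box in at least 1 window, 16 a CCAAT box, 7 a CHR, 7 the ETS-type site, 4 an E2F-type site (TTTGGCGC, TTTCGCGC or TTTCCCGC, either strand), 3 the NRF1-type site and 3 the CRE. Over all 27305 genes in the table these shares were 48.3%, 39.7%, 19.5%, 4.95%, 3.30%, 1.52% and 2.25%, in the same order. The E2F-type site was found for 2 of 6 genes that rose and 0 of 5 that fell, and the CCAAT box for 4 of 6 and 2 of 5. The repair genes had more windows per gene, 51 for 33 genes against 35116 for 27305. More windows raise the odds of at least 1 match. These are counts of letters with no test. The median GC content of the 51 windows of these genes was 65.7%, against 58.7% over all windows.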
